A study of Arabidopsis thaliana with 12 samples.

Results

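The genes described are those of the Arabidopsis secretory machinery that docks and fuses transport vesicles: subunits of the exocyst, SNARE proteins, Rab GTPases and genes named SEC. They were taken as probe sets with a single annotated gene whose symbol begins with EXO70, EXO84, SEC and a digit, SYP, VAMP, SNAP, VTI, MEMB, RAB, ARA, ARFA or ARFB, with or without the prefix AT, and whose locus lies outside AT2G36350 to AT2G45820. This gave 13 genes of 22746 probe sets. A further match, RAB6A (AT2G44610), fell inside that interval and was set apart. The RefSeq gene table holds 153 genes with such symbols, and 14 of them had a single-gene probe set. All 23 genes named EXO70, all 11 named VAMP and most of the 24 named SYP and 50 named RAB are therefore not analysed here, including SYP121, SYP122, SNAP33, VAMP721, VAMP722 and EXO70B2.

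Exocytosis in plants begins when a vesicle, marked by a Rab GTPase in its active form, is caught at the plasma membrane by the exocyst, a tethering complex. SNAREs on the vesicle (R-SNAREs) and on the target membrane (Q-SNAREs) then zip together and fuse the membranes, and Sec1/Munc18 proteins bind the Qa-SNARE (syntaxin) and help the complex form. In leaves this route delivers cell wall material, and it is known for carrying antimicrobial cargo to sites of fungal and oomycete attack.

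Transcript levels came from Affymetrix ATH1 arrays of the aerial parts of plants 2 weeks old, grown at 23 C and 70% humidity with 16 h of light. The 12 arrays held 2 of each of 6 genotypes: the triple mutant cpr5npr1svi1, the double mutant cpr5npr1, which the labels call resistant to P. parasitica, the double mutant cpr5scv1, in which the labels describe wild-type susceptibility to P. parasitica and resistance to B. cinerea, the single mutants cpr5 and npr1, and the wild type (WT), Col-0. The cpr5 mutant is known for lesions and defence gene activity without a pathogen, and NPR1 for coactivating responses to salicylic acid. Of the 6, 4 carry cpr5 (cpr5npr1svi1, cpr5npr1, cpr5scv1 and cpr5), and no array shows scv1 or svi1 without it. Nothing in the labels says that the 2 arrays of a genotype came from separate plants, so p-values measure the spread between arrays, which may be technical. Because these are whole aerial parts, fewer cells of a type and less RNA per cell cannot be told apart.

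The deposited values are MAS5 signals on a linear scale, with each array scaled to a common trimmed mean. The median signal ranged from 36.8 to 43.5 between arrays, from 76.9% to 79.5% of probe sets lay above a background of 7.76, and the number of arrays limits the precision. Replicate arrays correlated at 0.9305 in WT and at 0.9572 to 0.9669 in the other genotypes. The markers of leaf mesophyll had no named probe set, so the tissue label was not checked with them. The guard cell gene FMA (54.8 to 91.4) and the trichome gene TRY (11.2 to 45.1) were above background in every array. The pollen gene MGH3 was below it in 10 of 12 arrays and the root hair gene EXPA7 in 6.

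By role, the 13 genes were 7 exocyst subunits (SEC5A, AT1G76850; SEC5B, AT1G21170; SEC6, AT1G71820; SEC10, AT5G12370; SEC15A, AT3G56640; SEC15B, AT4G02350; EXO84B, AT5G49830), 3 SNAREs and 3 others. The SNAREs were ATSYP24 (AT1G32270), a syntaxin-type Qa-SNARE, AtSec20 (AT3G24315), whose yeast counterpart is a Q-SNARE of Golgi-to-ER retrieval, and SEC22 (AT1G11890), an R-SNARE of traffic between the ER and the Golgi. ARA6 (AT3G54840) is a plant-specific Rab GTPase of the Rab5 group on endosomes, and SEC1B (AT4G12120) is a Sec1/Munc18 protein, a relative of KEULE. ARA12 (AT5G67360) is a secreted subtilisin-like protease that the symbol rule caught by name, and it is kept apart from the 12 machinery genes. SEC10 has a near-identical tandem copy in Columbia, so its probe set may report both copies.

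Every gene but ATSYP24 was above background in all 12 arrays. ATSYP24 was below it in 6 of 12 arrays, with signals between 1.34 and 17.7, and was left out of the tests with the dimmest 30% of probe sets. No other gene of the 13 failed that filter, so 12 genes were tested, 11 of them in the machinery.

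**Figure D1:**
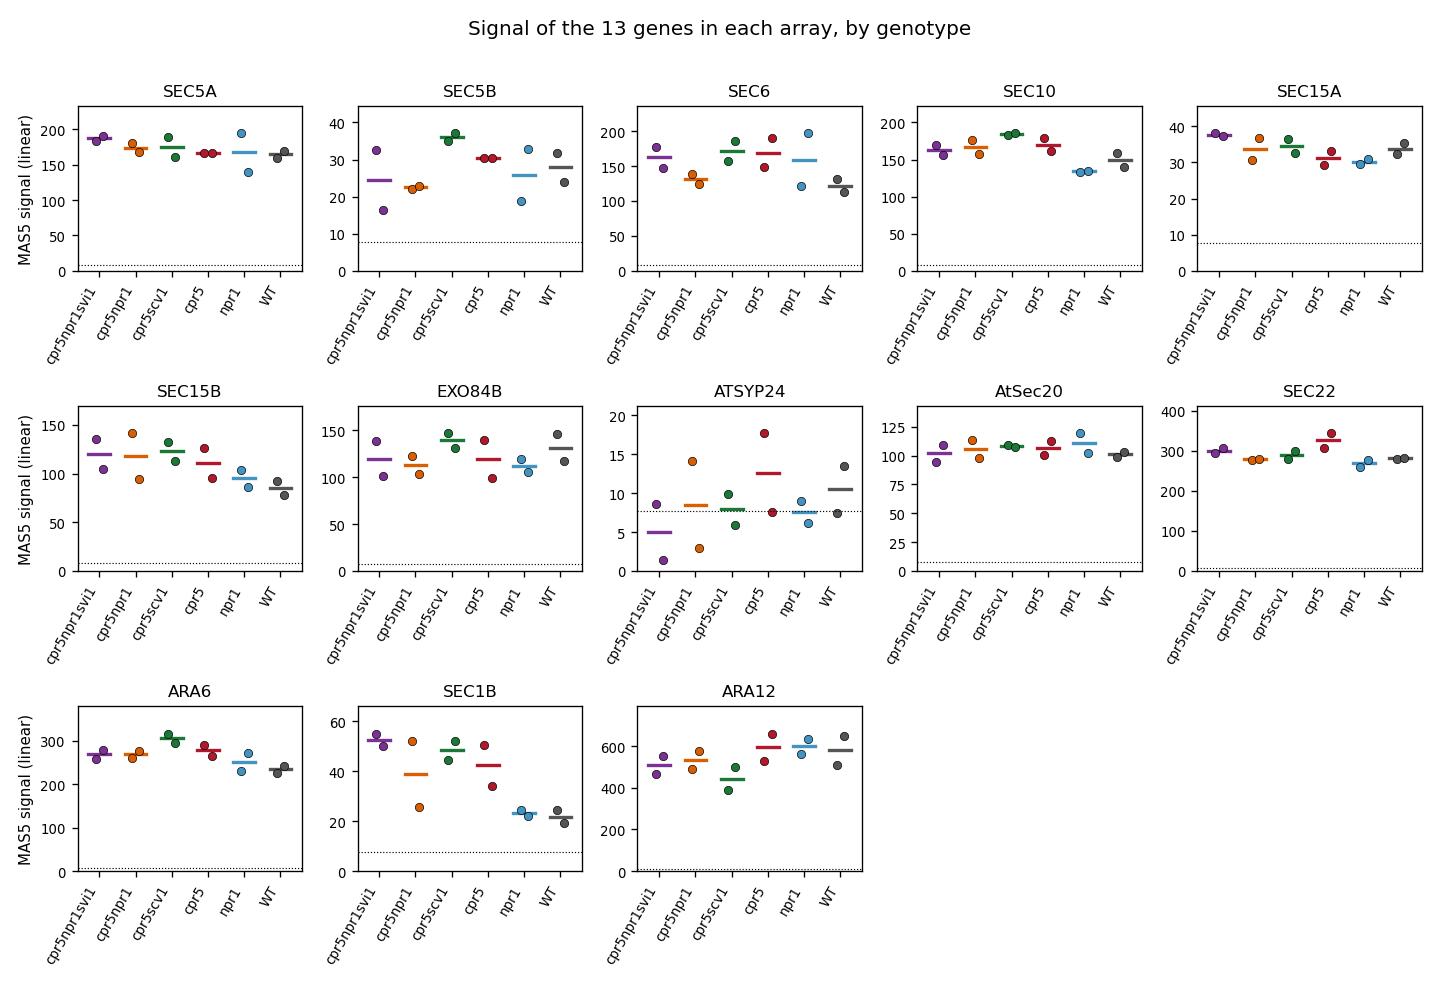
MAS5 signal (linear, from 0) of each of the 13 genes in each array, by genotype; points are arrays, horizontal bars the mean of the 2 arrays, and the dotted line the background of 7.76. The SEC1B panel shows the 8 arrays that carry cpr5 above the 4 that do not; ATSYP24 lies around the background.

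SEC1B had the widest spread between genotypes of the 12 genes tested. The highest genotype mean was 2.42 times the lowest for SEC1B, and between 1.096 and 1.61 times for the other 11 genes tested. In the moderated F test of any difference between the 6 genotypes, 0 of the 12 genes were called at an adjusted p below 0.05, where 16.8% of all 15923 probe sets tested were. SEC1B came nearest, with an adjusted p of 0.0646 by limma, and the other 11 genes had adjusted p-values of 0.303 to 0.986. With the replicate number as a block, 2 genes were called in this F test, where 30.4% of all probe sets were. Without cpr5npr1 replicate 1 or replicate 2 it called 1 gene, against 15.1% and 15.5% of all.

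SEC1B, the Sec1/Munc18 gene, had signals of 55.0 and 50.0 in the cpr5npr1svi1 arrays, 52.3 and 25.7 in cpr5npr1, 44.5 and 52.2 in cpr5scv1, and 50.6 and 34.0 in cpr5, while npr1 had 24.6 and 21.9 and WT had 24.4 and 19.1. All 8 arrays with cpr5, at 25.7 to 55.0, lay above all 4 arrays without it, at 19.1 to 24.6. The lowest of the 8, cpr5npr1 replicate 2, stood just above npr1 replicate 1. By mean, the genotypes ran 52.5 ± 3.54 in cpr5npr1svi1, 39.0 ± 18.8 in cpr5npr1, 48.3 ± 5.41 in cpr5scv1, 42.3 ± 11.7 in cpr5, 23.2 ± 1.88 in npr1 and 21.7 ± 3.78 in WT (SD, n = 2 each). SEC1B was not called in npr1 against WT, in cpr5npr1 or cpr5scv1 against cpr5, or in cpr5npr1svi1 against cpr5npr1. Other pairs among the 4 genotypes with cpr5 were not tested.

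SEC1B rose in cpr5npr1svi1 against WT, by 1.28 on the log2 scale (SE 0.337, 95% interval 0.54 to 2.03, a fold of 2.43; adjusted p = 0.0324, limma). It was the only one of the 12 genes called there, where 12% of all probe sets were called. It also rose in cpr5scv1 against WT, by 1.16 (SE 0.337, interval 0.41 to 1.91, a fold of 2.23; adjusted p = 0.0314), again as the only gene of the 12 by limma, against 22.4% of all probe sets. In cpr5 against WT its log2 change was 0.94 (interval 0.20 to 1.69) with a limma adjusted p of 0.119. There 0 of 12 genes were called, where 8.71% of all probe sets were. An unadjusted limma p below 0.05 was reached by 1 of 12, against 22.7% of all probe sets. In cpr5npr1 against npr1 the SEC1B change was 0.66 (interval -0.09 to 1.40, limma adjusted p = 0.361). It was 0.15 without cpr5npr1 replicate 1 and 1.17 without cpr5npr1 replicate 2. In this comparison 0 of 12 genes were called, against 5.12% of all, and 0 had an unadjusted p below 0.05, against 17.4% of all. The comparisons with WT share the 2 WT arrays, so their SEC1B values are not independent of each other.

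The calls of SEC1B rested on few arrays. With each array left out in turn, its log2 change ran from 0.98 to 1.34 in cpr5scv1 and from 1.105 to 1.46 in cpr5npr1svi1. The call in cpr5scv1 was lost without WT replicate 1 (limma adjusted p = 0.0511), WT replicate 2 (0.119), cpr5scv1 replicate 1 (0.0897) or cpr5scv1 replicate 2 (0.148), and that in cpr5npr1svi1 without WT replicate 1 (0.0595), WT replicate 2 (0.107), cpr5npr1svi1 replicate 1 (0.131) or cpr5npr1svi1 replicate 2 (0.126). Quantile normalization also ended them (0.0641 in cpr5npr1svi1 and 0.064 in cpr5scv1), as did testing all probe sets without the filter (0.0518 and 0.0507). With the replicate block the adjusted p was 0.00974 in cpr5npr1svi1, 0.178 in cpr5npr1 against npr1, 0.0101 in cpr5scv1 and 0.0449 in cpr5, so the block added a call in cpr5. The block also raised the share of all probe sets called, to 21.4%, 10.4%, 34% and 17.4% in the same order.

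Setting the mean of the 4 genotypes with cpr5 against the mean of npr1 and WT, a contrast chosen after these values were seen, gave SEC1B a log2 difference of 0.99 (SE 0.206, limma adjusted p = 0.0052). It stayed called with each of the 12 arrays left out in turn (0.86 to 1.11, adjusted p 0.0012 to 0.0251). In that contrast 2 of 12 genes were called, SEC1B and SEC10, against 26.8% of all probe sets. With the replicate block it was 4 of 12 (SEC1B, SEC10 and SEC15B higher, ARA12 lower), against 38% of all. It was 1 with each other scaling, pseudocount or filter, and 1 or 2 with an array left out. SEC1B was also the only gene of the 12 whose 8 arrays with cpr5 all lay above the other 4, a pattern that 9.31% of all probe sets showed.

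**Figure D2:**
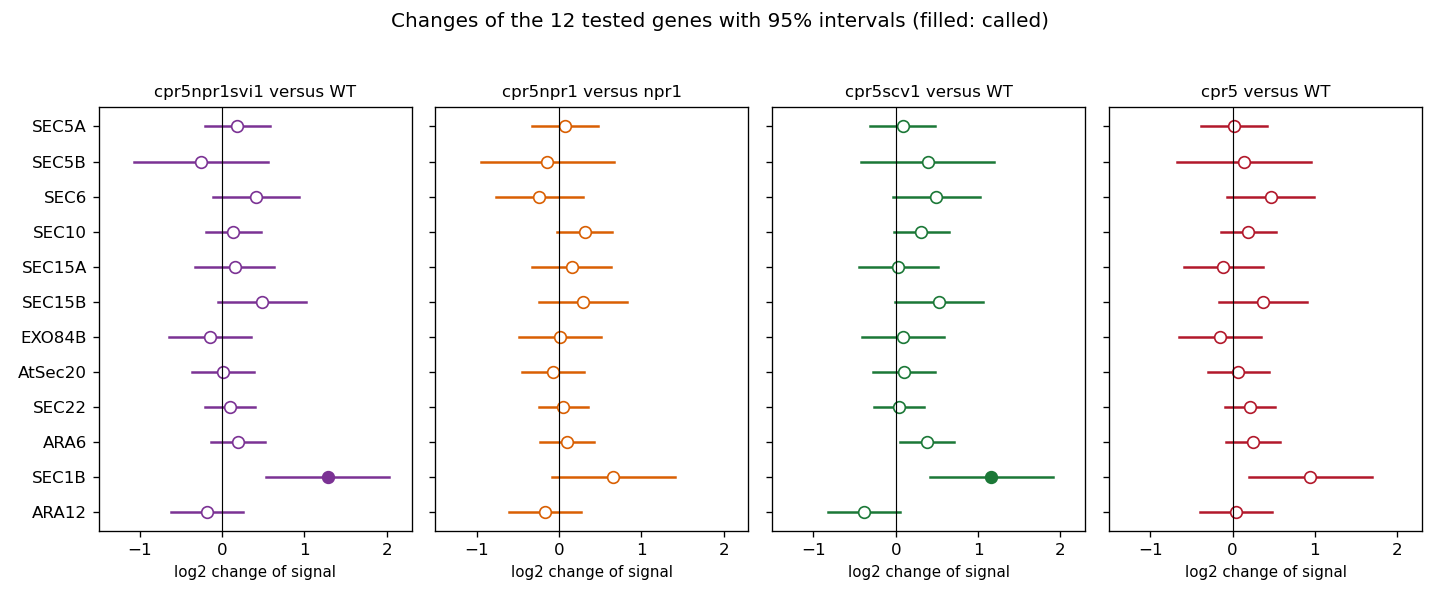
Log2 change of signal (x axis) of the 12 tested genes (rows) in 4 comparisons, with 95% intervals of the limma fit; filled points passed an adjusted p below 0.05. The filled points are SEC1B in cpr5npr1svi1 at 1.28 and in cpr5scv1 at 1.16; the other 11 genes stay between -0.39 and 0.53.

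Among the exocyst subunits none was called in any of the 8 comparisons between genotypes in the main fit, which had no replicate block. SEC15B, a subunit that links the complex to Rab GTPases in yeast and animals, had signals of 136 and 105 in cpr5npr1svi1, 141 and 94.7 in cpr5npr1, 133 and 113 in cpr5scv1, and 127 and 95.9 in cpr5, while npr1 had 103 and 86.4 and WT had 92.5 and 78.2. Replicate 1 was the higher array in each of the 6 genotypes, and every array of cpr5npr1svi1, cpr5scv1 and cpr5 lay above the WT arrays. Its log2 change was 0.49 in cpr5npr1svi1 (limma adjusted p = 0.238), 0.53 in cpr5scv1 (0.148) and 0.37 in cpr5 (0.409) against WT. With the replicate block SEC15B was called in cpr5npr1svi1 (adjusted p = 0.0316) and in cpr5scv1 (0.0148), though not in cpr5. The contrast of the 4 cpr5 genotypes with npr1 and WT gave it 0.38 (adjusted p = 0.083, and 0.00533 with the block).

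SEC10, whose yeast counterpart pairs with Sec15 in the complex, had 170 and 157 in cpr5npr1svi1, 176 and 157 in cpr5npr1, 183 and 186 in cpr5scv1, and 179 and 162 in cpr5, while npr1 had 134 and 134 and WT had 158 and 139. The npr1 arrays were the lowest, and the highest WT array overlapped the lowest arrays with cpr5. The contrast of the 4 cpr5 genotypes with npr1 and WT gave SEC10 a log2 difference of 0.27 (SE 0.0926, limma adjusted p = 0.0497). That call was lost in each of 12 refits that left out an array (adjusted p 0.051 to 0.144) and with every scaling, pseudocount or filter tried (0.0505 to 0.386), and it held with the replicate block (0.0138).

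SEC5A, whose yeast counterpart pairs with Sec3, had 184 and 191 in cpr5npr1svi1, 181 and 167 in cpr5npr1, 190 and 161 in cpr5scv1, and 167 and 167 in cpr5, while npr1 had 195 and 140 and WT had 159 and 170. The npr1 arrays spanned the signals of every other genotype. Against WT its log2 change was 0.19 in cpr5npr1svi1, 0.08 in cpr5scv1 and 0.02 in cpr5, and in cpr5 its fold lay between 0.77 and 1.34 (95% interval).

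SEC6, whose yeast counterpart pairs with Sec8, had 177 and 148 in cpr5npr1svi1, 139 and 124 in cpr5npr1, 158 and 186 in cpr5scv1, and 148 and 190 in cpr5, while npr1 had 122 and 197 and WT had 131 and 113. Both arrays of cpr5npr1svi1, cpr5scv1 and cpr5 lay above those of WT, with log2 changes of 0.41, 0.49 and 0.46, none of them called. The change in cpr5 differed most between plants with and without npr1 for this gene: the interaction was -0.70 on the log2 scale (adjusted p = 1.0, limma), and npr1 replicates 1 and 2 themselves differed by more than the cpr5 and WT means did.

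The remaining subunits are given by their range. SEC5B, a close relative of SEC5A, ranged from 16.4 to 37.1 over the 12 arrays, SEC15A from 29.4 to 38.1, and EXO84B, a subunit known in Arabidopsis for plasma membrane secretion, from 99.2 to 147. The lowest and highest of the 12 SEC5B arrays were cpr5npr1svi1 replicate 2 and cpr5scv1 replicate 2.

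As a class, the exocyst subunits had a median log2 change of 0.15 in cpr5npr1svi1, 0.31 in cpr5scv1 and 0.14 in cpr5 against WT, and of 0.07 in cpr5npr1 against npr1, while the medians of all probe sets were 0.04, -0.01, 0.02 and 0.00 (-0.0015). All 7 subunits were positive in cpr5scv1, where 49.2% of all probe sets were. In each of the other 3 it was 5 of 7, against 54.2% of all in cpr5npr1svi1, 52.2% in cpr5 and 49.9% in cpr5npr1. Scaling the arrays to a common median moved the exocyst medians to -0.04 in cpr5npr1svi1, 0.12 in cpr5scv1, -0.05 in cpr5 and -0.07 in cpr5npr1, and those of all probe sets to -0.15, -0.20, -0.17 and -0.14, so the sign turned in 3 of 4 comparisons while the exocyst stayed above the median of all. Quantile normalization gave exocyst medians of 0.09, 0.20, -0.03 and -0.02 in the same order. Single arrays moved these medians too: in cpr5 the median was 0.28 without WT replicate 1 and 0.068 without WT replicate 2, and in cpr5scv1 it was 0.18 without WT replicate 2. In cpr5npr1 it ran from 0.0025 without cpr5npr1 replicate 1 to 0.16 without npr1 replicate 2, and leaving out cpr5npr1 replicate 2 or npr1 replicate 1 also moved it by over 1.5 times. These medians are descriptions, since no subunit was called in any of these comparisons in the main fit.

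**Figure D3:**
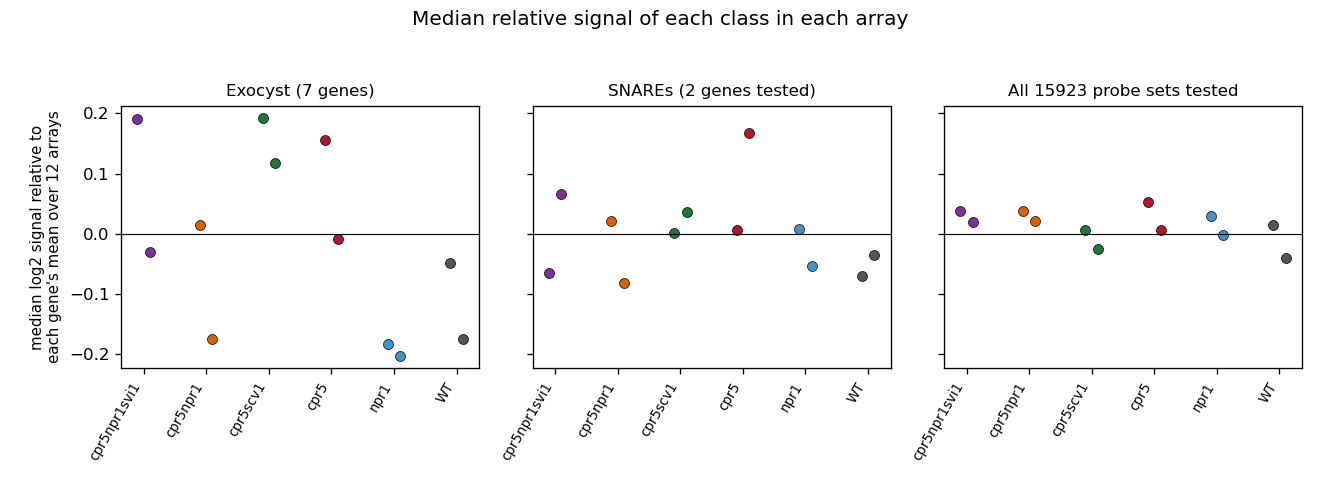
Median log2 signal of a class in each array, relative to each gene's mean over the 12 arrays, for the exocyst (7 genes), the SNAREs tested (2 genes) and all 15923 probe sets; points are arrays by genotype. The exocyst medians run from -0.20 in npr1 replicate 2 to 0.19 in cpr5scv1 replicate 1, and those of all probe sets stay between -0.04 and 0.05.

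Neither of the SNAREs tested was called in any comparison. AtSec20 had 94.9 and 110 in cpr5npr1svi1, 114 and 97.7 in cpr5npr1, 110 and 108 in cpr5scv1, and 100.3 and 113 in cpr5, while npr1 had 119 and 102 and WT had 99.2 and 103. Its highest genotype mean was 1.096 times its lowest, and its fold in cpr5scv1 against WT lay between 0.83 and 1.39 (95% interval). SEC22 had 295 and 306 in cpr5npr1svi1, 278 and 281 in cpr5npr1, 281 and 299.8 in cpr5scv1, and 308 and 344 in cpr5, while npr1 had 260 and 278 and WT had 281 and 284. Both cpr5 arrays stood above every other array of SEC22, yet the log2 change against WT was 0.21 with a limma adjusted p of 0.419. The 2 SNAREs had median changes of 0.05, -0.01, 0.07 and 0.14 in cpr5npr1svi1 against WT, cpr5npr1 against npr1, cpr5scv1 against WT and cpr5 against WT.

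ARA6, the endosomal Rab GTPase, had 257 and 279 in cpr5npr1svi1, 260 and 276 in cpr5npr1, 316 and 294 in cpr5scv1, and 291 and 265 in cpr5, while npr1 had 231 and 270 and WT had 226 and 242. The WT arrays lay below all 8 arrays with cpr5, while npr1 replicate 2 lay among them. The largest difference of ARA6 was in cpr5scv1 against WT, at 0.38 on the log2 scale (95% interval of the fold 1.04 to 1.64), with a limma adjusted p of 0.0901. The replicate block brought this to 0.0363, and scaling to a common median took the change in the contrast of the 4 cpr5 genotypes to 0.04, against 0.21 as deposited.

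ARA12, the protease outside the machinery, ran the other way in cpr5scv1. It had 388 and 499 there, against 511 and 649 in WT, and 468 to 660 in the other 8 arrays with or without cpr5. Its log2 change in cpr5scv1 was -0.39 (limma adjusted p = 0.186, and 0.0164 with the replicate block), and in the contrast of the 4 cpr5 genotypes it was -0.19 (adjusted p = 0.284, and 0.0405 with the block). Replicate 2 of ARA12 was the higher array in all 6 genotypes, as it was for SEC22, which 9.17% of all probe sets showed. Replicate 1 was the higher in all 6 for SEC15B and EXO84B, against 12.5% of all probe sets.

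Counting genes whose arrays did not overlap between genotypes, 7 of 12 were higher in cpr5npr1svi1 than in WT, against 28.5% of all probe sets, and 7 higher and 1 lower in cpr5scv1, against 29.8% and 29.6%. In cpr5, 6 of 12 were higher than in WT, against 26.7%, and in cpr5npr1, 2 were higher than in npr1, against 25.4%. SEC6, SEC15B, ARA6 and SEC1B were higher in all arrays of each of the 3 genotypes compared with WT. The 3 comparisons share the WT arrays, in which these 4 genes had their lowest genotype means. How many of all probe sets were higher in all 3 was not counted, so this pattern has no share to be set against.

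The comparisons that isolate npr1, scv1 and svi1 called none of the 12 genes. In npr1 against WT (0.00628% of all probe sets called) their log2 changes lay between -0.22 for EXO84B and 0.35 for SEC6, and 0 had an unadjusted p below 0.05. In cpr5npr1 against cpr5 (0.044% called) they lay between -0.44 for SEC5B and 0.10 for SEC15A, also with 0 at an unadjusted p below 0.05. In cpr5scv1 against cpr5 (0.804% called) they lay between -0.43 for ARA12 and 0.25 for SEC5B. In cpr5npr1svi1 against cpr5npr1 (1.15% called) they lay between -0.06 for ARA12 and 0.52 for SEC1B. Again 0 had an unadjusted p below 0.05 by limma in each. Over all probe sets, 5.65%, 3.9%, 11.5% and 10.3% had an unadjusted p below 0.05 in these comparisons, in the order given. SEC1B changed by 0.22 with scv1 (interval -0.53 to 0.96) and by 0.52 with svi1 (interval -0.23 to 1.26). The interaction of cpr5 and npr1 called 0 of 12 genes (0.0251% of all probe sets called), and 0 had an unadjusted p below 0.05, against 3.18% of all. For SEC1B the interaction was -0.29 (interval -1.34 to 0.77).

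Genes that work beside the machinery were read from lists of SNARE and Rab regulators, adaptors, ESCRT subunits, tethers and myosins. Of 27 such genes tested, 3 rose in cpr5npr1svi1 against WT, 2 in cpr5npr1 against npr1, 8 in cpr5scv1 against WT and 1 in cpr5 against WT, and 0 fell in any comparison. Their median log2 changes were 0.16, 0.17, 0.33 and 0.13, beside the medians of all probe sets given above. Higher calls made up 7.88%, 4.32%, 12.8% and 6.56% of all probe sets in the same order.

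KEU (AT1G12360), which encodes KEULE, the Sec1/Munc18 protein of cytokinesis and a relative of SEC1B, had 184 and 168 in cpr5npr1svi1, 221 and 160 in cpr5npr1, 282 and 224 in cpr5scv1, and 171 and 164 in cpr5, while npr1 had 125 and 119 and WT had 138 and 112. As with SEC1B, all 8 arrays with cpr5 lay above the other 4, a pattern that 9.31% of all probe sets showed. Of the partner genes, VPS20.1, VPS60.1, VPS46.2, VPS24.1 and AP2M showed it too. KEU rose by 1.02 in cpr5scv1 against WT (SE 0.199, limma adjusted p = 0.00453), a call held without each of the 12 arrays in turn (adjusted p up to 0.0498) and in the 5 other settings. Its log2 changes of 0.50 in cpr5npr1svi1 (adjusted p = 0.137) and 0.43 in cpr5 (0.229) against WT, and of 0.62 in cpr5npr1 against npr1 (0.118), were not called. The other regulators with a probe set, CCZ1A, CCZ1B and MON1, which act in Rab conversion on late endosomes, were not called in any of the 8 comparisons. Nor were the adaptor subunits AP2M and AP4M, the genes MAG2, CLUB, SEC31B and YKT61 of the tethering list, or the dynamin and VPS9 list. AP2M, the medium subunit of the plasma membrane clathrin adaptor, had a log2 change of 0.60 in cpr5scv1 (adjusted p = 0.0531). MAG2 had 0.90 in cpr5 (limma adjusted p = 0.0694) and 0.36 in cpr5scv1 (0.379) against WT. In cpr5npr1svi1 against WT the genes of the tethering list lay between -0.05 and 0.02. The contrast of the 4 cpr5 genotypes with npr1 and WT called 1 of 2 adaptor genes higher (changes of 0.20 and 0.51). It also called 6 of 12 ESCRT genes, 1 of 4 myosins and 1 of 4 regulators higher. In the tethering and dynamin lists it called 0 genes. Of all probe sets, 26.8% were called in that contrast, in either direction.

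The ESCRT subunits, which sort membrane proteins into the inner vesicles of late endosomes, held most of the calls. Of 12 tested, 3 rose in cpr5npr1svi1, 6 in cpr5scv1 and 1 in cpr5 against WT, and 2 in cpr5npr1 against npr1. In the same order, 7.88%, 12.8%, 6.56% and 4.32% of all probe sets were called higher. The ESCRT median log2 changes were 0.33, 0.61, 0.35 and 0.30, with 10, 10, 10 and 11 genes positive. Of all probe sets, 54.2%, 49.2%, 52.2% and 49.9% were positive. The lowest ESCRT changes were -0.20, -0.37, -0.54 and -0.38. All of the ESCRT genes but ELC came from a list drawn up after the annotation had been read. VPS20.1 (AT5G63880), an ESCRT-III subunit, had 56.7 and 78.4 in cpr5npr1svi1, 62.6 and 62.1 in cpr5npr1, 84.4 and 96.8 in cpr5scv1, and 53.8 and 58.7 in cpr5, while npr1 had 24.9 and 33.1 and WT had 22.4 and 33.3. Every array with cpr5 lay well above the 4 without it. VPS20.1 was called in all 4 comparisons, with log2 changes of 1.29 in cpr5npr1svi1 (adjusted p = 0.00885), 1.12 in cpr5npr1 (0.0306), 1.73 in cpr5scv1 (0.000948) and 1.04 in cpr5 (0.0302).

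VPS60.1 (AT3G10640), an ESCRT-III-related subunit, had 87.0 and 89.7 in cpr5npr1svi1, 109 and 83.9 in cpr5npr1, 147 and 106 in cpr5scv1, and 83.3 and 83.2 in cpr5, while npr1 had 41.7 and 51.2 and WT had 51.0 and 49.5. Its arrays with cpr5 were all above those without. It rose in cpr5npr1svi1 by 0.81 (adjusted p = 0.0307), in cpr5npr1 by 1.05 (0.0158) and in cpr5scv1 by 1.31 (0.00163), while its 0.73 in cpr5 was not called (0.0592). For both genes the call in cpr5scv1 held in all 17 refits. That of VPS20.1 in cpr5npr1svi1 was lost without WT replicate 1 (0.0558) or cpr5npr1svi1 replicate 2 (0.0893), and in cpr5 without WT replicate 1 (0.159) or either cpr5 array (0.117 and 0.156). The call of VPS20.1 in cpr5npr1 held without any WT or cpr5npr1svi1 array and was lost without each of the other 8 (0.0507 to 0.223). The call of VPS60.1 was lost in cpr5npr1 without npr1 replicate 1 (0.141) or cpr5npr1 replicate 1 (0.163), and in cpr5npr1svi1 without either WT array (0.0921 and 0.0762) or either cpr5npr1svi1 array (0.1 and 0.15).

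**Figure D4:**
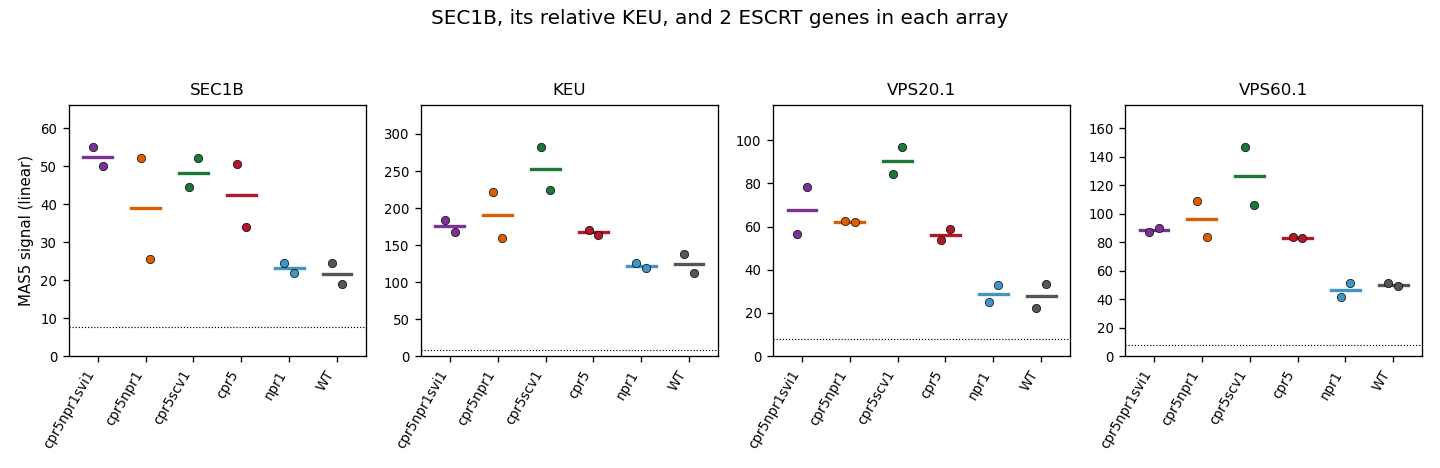
MAS5 signal (linear, from 0) of SEC1B, KEU, VPS20.1 and VPS60.1 in each array, by genotype; points are arrays, bars the mean of 2, and the dotted line the background of 7.76. In each panel the 8 arrays with cpr5 lie above the 4 of npr1 and WT, as in 9.31% of all probe sets. For KEU, VPS20.1 and VPS60.1 cpr5scv1 has the highest mean.

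The other calls in cpr5scv1 were VPS46.2 (log2 change 0.83, ESCRT-III-related), VPS2.1 (0.97, ESCRT-III), VPS36 (0.76, ESCRT-II), ELC (0.58, ESCRT-I) and XIH (1.00, a class XI myosin, the motor family that moves vesicles on actin). These calls were lost when arrays were left out: VPS46.2 without WT replicate 2 (adjusted p = 0.0553) or cpr5scv1 replicate 2 (0.0823), VPS2.1 without cpr5scv1 replicate 1 (0.0898), and VPS36 without WT replicate 1 (0.0537), WT replicate 2 (0.101) or cpr5scv1 replicate 1 (0.193). XIH was lost without WT replicate 2 (0.0856) or either cpr5scv1 array (0.0658 and 0.0884), and ELC without WT replicate 1 (0.167), either cpr5 array (0.0511 each) or either cpr5scv1 array (0.112 and 0.142). In cpr5npr1svi1 VPS24.1, another ESCRT-III subunit, was called at 0.57 (adjusted p = 0.0424) and lost this without any array but WT replicate 2 (0.0517 to 0.211). Quantile normalization and scaling to a common median each ended the calls of VPS20.1 in cpr5 and cpr5npr1, of VPS60.1 and VPS24.1 in cpr5npr1svi1 and of ELC in cpr5scv1 (adjusted p 0.0615 to 0.159), and scaling to a common median ended that of VPS36 (0.0611).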

How the data were processed

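The deposited intensities are MAS5 signals on a linear scale from biotin-labelled total RNA on Affymetrix ATH1 arrays, per the submitters' processing notes. No source used here gives the version, detection calls or target of MAS5. With the lowest and highest 2% of probe sets left out, every array had the same mean, so each had been scaled to a common target, which makes changes relative to the rest of the array. The log2 of the signal as deposited by the authors was used with no further normalization and no pseudocount.

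Names came from the annotation of the platform and a RefSeq gene table: 13513 probe sets had 1 gene, 503 several and 8730 none listed, and a probe set listing none may still report a gene. No build is named, so positions are locus codes. The brightest probe set of a gene was used. CHC1 on the adaptor list matched a chromatin remodelling gene of that name and was left out. The 64 control sets and the dimmest 30% of the 22746 probe sets by mean log2 signal were left out, leaving 15923. Background is the 95th percentile of 27 bacterial control sets.

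In R 4.3.3, limma 3.58.1 fitted 6 group means to 12 arrays, with 6 residual and 4.65 prior degrees of freedom (functions lmFit and contrasts.fit, then eBayes allowing the variance to follow the signal). Calls are at a Benjamini-Hochberg adjusted p below 0.05 over all 15923 probe sets in each of 8 comparisons, the interaction and the F test. Every adjusted p is from limma. No 2 arrays were identical. The script was tested on simulated data.

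Replicate numbers come from the sample titles. Differences between replicates 1 and 2 correlated at 0.175 to 0.363 in all 15 pairs of genotypes, which was read as pairing. The main fit left this pairing out, and only the replicate block took it in. Alternatives were quantile normalization, scaling to a common median, a pseudocount of 32, no filter, the replicate block, and each array left out; with an array out, the lone one is assumed to vary like the other groups.

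All 13 genes found by the rule could be named. SYP121, SYP122, SNAP33, VAMP721, VAMP722, EXO70B1, EXO70B2, EXO70A1, SEC5A, SEC15B, RABG3B and ARA6 were to be given in every array where they had a probe set, which SEC5A, SEC15B and ARA6 did; SEC6, SEC10, SEC22, AtSec20 and ARA12 are given so by choice after their values were seen. Of the partner lists, those of penetration resistance genes, Arf factors and COPI or COPII genes had 0 named probe sets. The COPII coat genes SEC31A and SEC31B had probe sets and were read with the tethering list, and only SEC31B passed the filter. The genes and lists were chosen with earlier results of these data known; the lists of ESCRT, myosin, tethering and dynamin-like genes were drawn from the annotation after it was read.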

Additional observations from a re-analysis of the deposited data

How the results depend on the processing

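SEC1B kept a positive change in all 4 comparisons under every alternative, but its calls did not hold in all. The number of the 12 genes called fell to 0 in cpr5npr1svi1 and in cpr5scv1 against WT (1 each as reported) with quantile normalization and with no filter. With the replicate block it was 2 in cpr5npr1svi1, 4 in cpr5scv1 (SEC1B, SEC15B and ARA6 higher, ARA12 lower), 1 in cpr5 and 2 in the F test over 6 genotypes, beside 21.4%, 34%, 17.4% and 30.4% of all probe sets called with that block. The block left the counts of the other comparisons and of the interaction at 0. With the mean of the 4 cpr5 genotypes set against npr1 and WT, an alternative added after the data were seen, 2 genes were called in place of 0 in cpr5 against WT, and 4 with the block. Leaving out an array in turn gave 0 to 1 called genes in cpr5npr1svi1 and in cpr5scv1, and 0 to 1 in the F test. Among the single genes, 53 of 816 refits changed sign, none of a called result: the largest change so affected was 0.257 on the log2 scale, and the adjusted p after the change was at least 0.483. Quantile normalization turned SEC15A (-0.052) and AtSec20 (-0.072) in cpr5npr1svi1, SEC15A (-0.024) and EXO84B (-0.047) in cpr5npr1, SEC15A (-0.16) and AtSec20 (-0.015) in cpr5scv1, and SEC5A (-0.029), SEC5B (-0.066) and AtSec20 (-0.035) in cpr5. Scaling to a common median, after which the median change of all probe sets lay between -0.20 and -0.14, turned SEC5A (-0.0061), SEC10 (-0.060), SEC15A (-0.039), AtSec20 (-0.18) and SEC22 (-0.10) in cpr5npr1svi1, SEC5A (-0.070), EXO84B (-0.13), SEC22 (-0.088) and ARA6 (-0.043) in cpr5npr1, SEC5A (-0.11), SEC15A (-0.16), EXO84B (-0.10), AtSec20 (-0.090) and SEC22 (-0.15) in cpr5scv1, and SEC5A (-0.17), SEC5B (-0.054), SEC10 (-0.0029), AtSec20 (-0.12) and ARA12 (-0.16) in cpr5. Leaving out an array gave changes on either side of 0 in cpr5npr1svi1 for SEC5B (-0.75 to 0.24), EXO84B (-0.37 to 0.082) and AtSec20 (-0.092 to 0.12), in cpr5npr1 for SEC5A (-0.16 to 0.31), SEC5B (-0.54 to 0.26), SEC6 (-0.59 to 0.11), EXO84B (-0.11 to 0.13), AtSec20 (-0.18 to 0.042) and ARA6 (-0.013 to 0.21), in cpr5scv1 for SEC5A (-0.036 to 0.20), SEC15A (-0.053 to 0.11), EXO84B (-0.069 to 0.24) and SEC22 (-0.0057 to 0.087), and in cpr5 for SEC5A (-0.026 to 0.068), SEC5B (-0.064 to 0.35), EXO84B (-0.40 to 0.091), AtSec20 (-0.012 to 0.15) and ARA12 (-0.13 to 0.21). The cause was not tested. Of 238 refits of the calls of partner genes, 55 lost the call and 0 changed sign. Scaling to a common median moved the share of higher calls over all probe sets to 40.1% in cpr5npr1svi1, 67.6% in cpr5npr1, 37.2% in cpr5scv1 and 45.8% in cpr5, against 65.9%, 84.4%, 57.4% and 75.3% as deposited. ATSYP24 lay too near background for a change to be read.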
